A study of Mus musculus with 8 samples.

Results

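In granule neuron progenitors of the young mouse cerebellum, 2277 of 46070 genomic regions with a peak of a nuclear factor I (NFI) protein, 4.94% of all, were listed for Mixed mice and not for CD1 mice. They were chosen by the peak calls themselves: overlapping peaks of the 6 deposited lists (1 bp or more) were joined, and a region was kept when it held a peak of at least 2 of the 3 Mixed libraries and of none of the 3 CD1 libraries. These Mixed-only regions were mostly weak peaks, and the strongest of them lay beside Bhlhe22, Sema6d and Dsel. Because the peak calls chose them, the number of regions, their folds and their widths are descriptions and carry no test.

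NFIA, NFIB and NFIX are transcription factors of 1 family that bind DNA as dimers. Their full element is a palindrome, TTGGCNNNNNGCCAA, and they also bind a single arm of it. In the cerebellum they act in progenitors of granule neurons, the small excitatory cells that divide on the surface after birth, leave the cell cycle, extend axons and migrate inward, and NFI proteins are known there for genes of axon growth, cell adhesion, migration and late maturation. A peak of chromatin immunoprecipitation followed by sequencing (ChIP-seq) marks DNA recovered with an antibody above the local background.

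The series holds 8 samples of granule neuron progenitors from postnatal day 7, dissociated from cerebellum. For each of NfiA, NfiB and NfiX there was 1 library from mice of a Mixed background, which the labels liken to outbred CD1, and 1 library from CD1 mice, and 2 input samples were not analysed here. No mutant allele or treatment is named for any group, and whether the libraries are from separate animals is not stated. With 1 Mixed library per factor, a p-value or standard deviation (SD) over libraries reflects the spread between NfiA, NfiB and NfiX. It does not measure the spread of replicates, and part of it may be technical. The labels name a Novus antibody for NfiB and the design text a Sigma antibody, and peak lists hold no expression with which the cell type could be checked.

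The NFI elements of Mixed-only regions are shown first, because they are the sequence the factors bind. Sequence of the build mm10 (GRCm38) was read from GENCODE transcripts and RefSeq promoter windows, so only summits in exons or at gene starts could be read: 155 regions, 6.81% of the set, had the 50 bases to each side of the summit covered. Among these 155, the full palindrome was found in 2 regions. A search with arms of 4 bases in place of 5 found 16, these 2 included. The 2 full palindromes lay in an untranslated or noncoding exon of Nsdhl, a sterol synthesis enzyme, at chrX:72958234-72958262 (nearest start site that of Zfp185, 29.1 kb away) and in an intron of Tspear at chr10:77735344-77735372. The other 4 lines are the strongest regions with the shorter arms, in untranslated or noncoding exons of Wdr86 (chr5:24713471-24713499), Bfar (chr16:13702399-13702427) and Senp8 (chr9:59735636-59735664) and in a coding exon of the kinase gene Tnik (chr3:28577507-28577535). All are on the plus strand, 5′ to 3′, and capitals mark the palindrome and any single element.
Nsdhl: tggctgcTTGGCAATAAGCCAAaaagagt
Tspear: aacaattTTGGCTTGAGGCCAActtaaca
Wdr86: aggacagaTGGCAGAGTGCCAccccatgg
Bfar: tctgactcTGGCACCATGCCAgctgactg
Senp8: ttcatttaTGGCTCACTGCCAAtttctaa
Tnik: gcagctacTGGCTGAGCGCCAgaagcgca
The Nsdhl region had a fold of 7.38 in the NfiA Mixed list and 7.23 in the NfiX Mixed list and no NfiB Mixed peak. The Wdr86 region had folds of 6.55, 7.07 and 6.69 in the NfiA, NfiB and NfiX Mixed lists, and the Tnik region 5.41, 6.28 and 6.93. No CD1 list held a peak in any of them, and the nearest CD1 peak was 4.29 kb away for Nsdhl, 49.8 kb for Wdr86 and 22.2 kb for Tnik.

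The single element, TTGGCA or its reverse complement TGCCAA, was in 49 of the 155 windows (31.6%, 95% Wilson interval 24.8 to 39.3%). In as many bases of each of 32851 RefSeq promoters the same search found it in 4.91%, and the full palindrome in 0.0122%. The single element was in 37.0% of 27 windows of CD1-only regions, 29.6% of 865 windows of regions with 2 or 3 Mixed and 2 or 3 CD1 peaks, and 21.7% of 637 windows of those with exactly 1 CD1 peak. A region in a coding exon of Minar1 held 1 single element near the edge of the window around its summit (chr9:89602000-89602100). A region in a coding exon of Hnf4a, a nuclear receptor, also held 1 (chr2:163558984-163559084). Both are shown on the plus strand with the single elements in capitals.
Minar1: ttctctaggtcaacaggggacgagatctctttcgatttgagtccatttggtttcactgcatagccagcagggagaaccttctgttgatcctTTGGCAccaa
Hnf4a: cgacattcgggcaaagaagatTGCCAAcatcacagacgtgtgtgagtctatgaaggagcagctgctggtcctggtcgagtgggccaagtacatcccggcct
The Minar1 region had folds of 5.03 in the NfiB Mixed list and 6.23 in the NfiX Mixed list. The Hnf4a region had folds of 4.37 in the NfiA Mixed list and 5.76 in the NfiB Mixed list.

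Mixed-only regions outnumbered their mirror image: 723 regions, 1.57% of all, held a peak of at least 2 CD1 libraries and of no Mixed library. The lists differed in length, with 23541, 33283 and 21443 peaks for NfiA, NfiB and NfiX in Mixed against 16993, 36431 and 7497 in CD1, so the shortest list by far was that of NfiX CD1. Mixed-only regions supplied 7.09%, 6.07% and 7.21% of the peaks of the NfiA, NfiB and NfiX Mixed lists. The count leaned on single libraries. It was 1269 without the NfiA Mixed list, 920 without NfiB Mixed, 1404 without NfiX Mixed and 9137 without NfiB CD1, since 6816 regions with at least 2 Mixed peaks had NfiB CD1 as their only CD1 peak.

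The pair NfiA and NfiB held the most Mixed-only regions, 744 (32.7%). All 3 Mixed libraries had a peak at 659 (28.9%), NfiB and NfiX at 614 (27.0%), and NfiA and NfiX at 260 (11.4%). Of all regions with a peak in all 3 Mixed libraries, 4.16% lacked a CD1 peak. That share was 15.8% for regions of NfiA and NfiB only, 25.8% for NfiB and NfiX only, and 34.4% for NfiA and NfiX only. In the mirror set the pair NfiA and NfiB was more prominent, with 612 of the 723 regions, and 64 had all 3 CD1 libraries.

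Peaks of Mixed-only regions were weak for their lists. The fold is the authors' ratio of fragments at the summit to the local background, with a small constant added to both. The fold had a median of 4.78, 5.01 and 5.31 at Mixed-only peaks of NfiA, NfiB and NfiX, against 5.60, 5.55 and 6.11 at the other peaks of the same lists. In fragments at the summit, recovered from the deposited fold and p-value, the medians were 17, 19 and 14 at Mixed-only peaks against 27, 29 and 23 at the other peaks. The gap was widest at the upper end, where the 90th percentile of fold was 6.65, 7.65 and 7.65 at Mixed-only peaks against 10.4, 11.5 and 11.8 at the others. The median width of Mixed-only regions was 303 bp (184 to 869 bp), against 335 bp over all regions and 324 bp for CD1-only regions. It was 212 bp for regions with exactly 1 Mixed peak and no CD1 peak. With at least 2 Mixed peaks and only NfiA, NfiB or NfiX CD1 it was 304, 379 and 303 bp. A joined region can only widen with each list that adds a peak, so width is not independent of the rule.

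**Figure D1:**
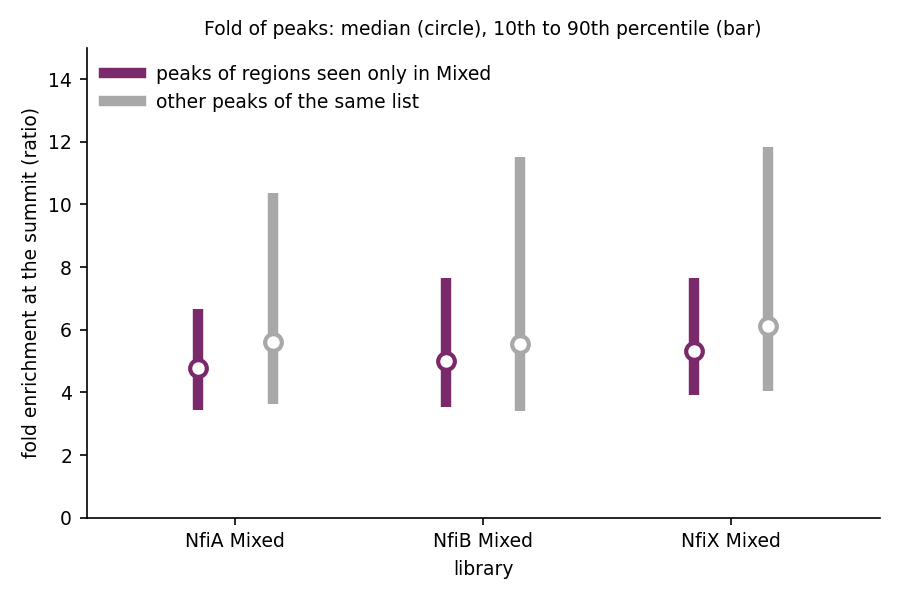
Fold enrichment at the summit (ratio, y axis) in the 3 Mixed lists (x axis) for peaks of Mixed-only regions (purple, left) and the other peaks of the same list (grey, right); circles are medians and bars run from the 10th to the 90th percentile. The medians lie close together, and the bars of the other peaks reach 10.4 to 11.8 where those of Mixed-only peaks end at 6.65 to 7.65.

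The share of regions that lacked a CD1 peak was lower the stronger the Mixed peaks were. Strength here is the mean percentile of a region's fold within the Mixed lists that had a peak. Among regions of all 3 Mixed libraries, 10.8% (23 of 212) lacked a CD1 peak below the 10th percentile, 6.22% between the 40th and 50th, and 0.386% (8 of 2070) above the 90th. In strength, Mixed-only regions were close to those with exactly 1 CD1 peak and above those with exactly 1 Mixed peak and no CD1 peak. The median percentile was 37.4 for Mixed-only regions and 37.7 for the 7091 regions with at least 2 Mixed peaks and exactly 1 CD1 peak, against 25.1 for the 6618 with exactly 1 Mixed peak and no CD1 peak. Of the 7091, the 6816 with only NfiB CD1 stood at 37.5. The 199 with only NfiA CD1 stood at 42.8 and the 76 with only NfiX CD1 at 55.7. Regions with 2 or 3 CD1 peaks stood at 65.0.

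**Figure D2:**
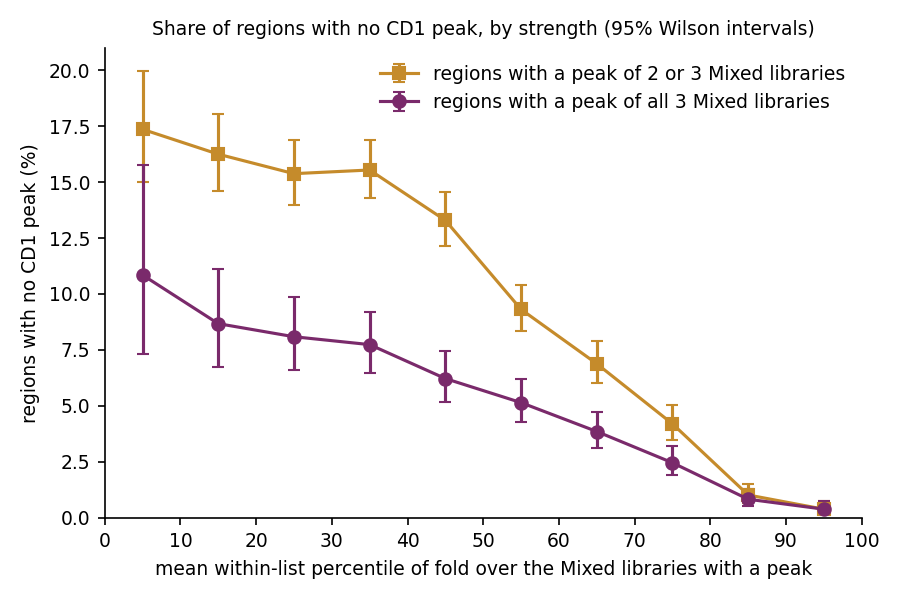
Share of regions with no CD1 peak (y axis, percent, with 95% Wilson intervals) by the mean within-list percentile of fold (x axis) for regions of 2 or 3 Mixed libraries (squares) and of all 3 (circles). The curves start at 17.4% and 10.8% in the lowest bin and both end at 0.386% in the highest.

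Few Mixed-only peaks were tall by the standard of the CD1 libraries. The lowest local background, an index of depth, was 1.30, 1.39 and 0.960 fragments in the NfiA, NfiB and NfiX Mixed lists, against 0.940, 1.35 and 0.856 in the CD1 lists of the same factors. Scaled by the ratio of these indices, the median Mixed-only summit would hold 12.3, 18.3 and 12.5 fragments at the depth of NfiA, NfiB and NfiX CD1, where the listed peaks had medians of 22, 28 and 21 and minima of 7, 8 and 7. Only 76 Mixed-only regions (3.34%) exceeded the CD1 median in every Mixed list that had a peak there, 35 of them in all 3. A region without a CD1 peak had no entry above the authors' threshold, which is not the same as no signal, and the part of depth in the set was not tested.

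The 3 factors ranked the Mixed-only regions alike, though less tightly than other regions. Across Mixed-only regions with peaks of both, Spearman's rho of fold was 0.58 for NfiA and NfiB (1403 regions), 0.47 for NfiA and NfiX (919) and 0.47 for NfiB and NfiX (1273). Over the other regions of the same pairs it was 0.78, 0.77 and 0.72, where folds also span a wider range. Summits of the 2 factors lay a median of 36, 33 and 37 bp apart at Mixed-only regions. These values come from libraries that share regions and background and are given as a description.

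Few Mixed-only regions were among the strong peaks of their lists. The 31 at a mean percentile of 80 or more were 1.36% of the set, against 3.32% of CD1-only regions by their CD1 folds, and 26 of them had a peak of all 3 Mixed libraries. Of the 20 strongest with all 3, 10 were intergenic, 9 were in introns and 1 was in a noncoding gene, and 13 were farther than 100 kb from a protein-coding start site. None of these 20 had sequence at its summit in the tables used here.

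**Figure D3:**
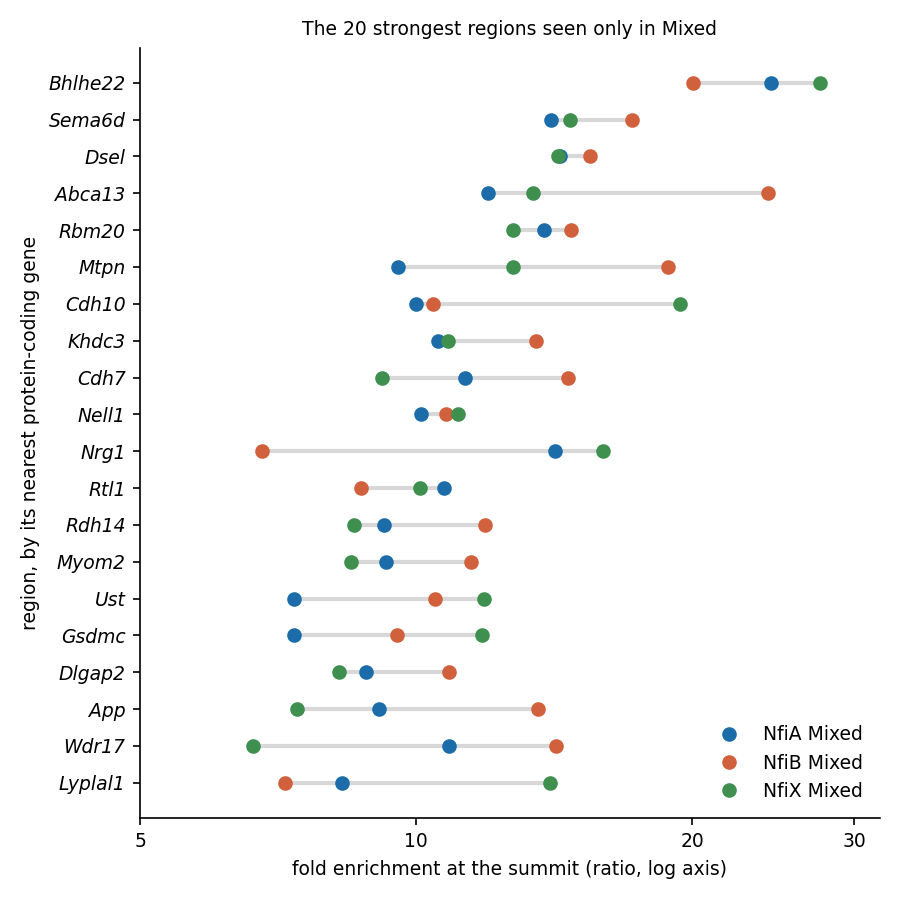
Fold enrichment (x axis, ratio, log axis) of the 20 strongest Mixed-only regions with a peak of all 3 Mixed libraries, named by nearest protein-coding gene (y axis), with 1 point per Mixed library. Bhlhe22 is highest in NfiA Mixed (24.3) and NfiX Mixed (27.6), and Abca13 is highest in NfiB Mixed (24.2).

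The strongest Mixed-only region was at chr3:18073685-18074165, in an intron of Cyp7b1, an oxysterol hydroxylase, and 19.7 kb downstream of the start of Bhlhe22, a basic helix-loop-helix factor of neuronal identity. Its fold was 24.3 in NfiA Mixed, 20.05 in NfiB Mixed and 27.6 in NfiX Mixed, from 55, 47 and 53 fragments. Scaled to the depth of the CD1 lists these would be 39.7, 45.3 and 47.3 fragments, where the smallest listed CD1 summits held 7, 8 and 7. The nearest peak of NfiB CD1 lay 5.91 kb away, and those of NfiA CD1 and NfiX CD1 57.8 kb away.

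A region 283 kb upstream of Sema6d, a transmembrane semaphorin that guides axons, came next (chr2:123806294-123806853). It had folds of 14.0, 17.2 and 14.7 from 50, 58 and 40 fragments in the NfiA, NfiB and NfiX Mixed lists. Again the NfiB CD1 list came closest, with a peak 6.61 kb away, against 145 kb for NfiA CD1 and 492 kb for NfiX CD1.

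The region beside Dsel, a dermatan sulfate epimerase, was the farthest of the 20 from a CD1 peak of any factor, 369 kb, and lay 574 kb from that gene (chr1:112439126-112439525). Its folds were 14.3, 15.5 and 14.3. Abca13, a lipid transporter, held a region in its own intron with folds of 11.97, 24.2 and 13.4, the highest NfiB Mixed fold of the set (chr11:9213614-9214235). In an intron of Rbm20, a splicing factor, folds were 13.8, 14.7 and 12.7 (chr19:53696439-53697278). Each of these was evenly listed by the factors except Abca13, where NfiB Mixed stood well above the other 2 lists.

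Cadherins, a growth factor and a synaptic scaffold were among the neighbours of the other 15. Most of these 15 lay beside other genes, which are not described here. Cdh10 and Cdh7, cadherins that hold cells together, were nearest to regions 862 and 132 kb away, with folds of 9.99, 10.4 and 19.4 for Cdh10 and 11.3, 14.6 and 9.18 for Cdh7. Nrg1, a ligand of ErbB receptors, held a region in its intron with folds of 14.2, 6.79 and 16.0, the lowest NfiB Mixed fold of the 20. Dlgap2, a scaffold of the postsynaptic density, had folds of 8.82, 10.9 and 8.24, and App, the amyloid precursor, 9.11, 13.6 and 7.41, both in introns. The nearest CD1 peak was 1.86 kb from the Nrg1 region, 3.05 kb from the App region and 13.0 kb from the Dlgap2 region.

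Regions of only 2 Mixed libraries were led by lower folds. For NfiA and NfiB the strongest was in an intron of Mpdz, a scaffold of cell junctions, with folds of 8.56 and 9.18, and the fifth was 22.5 kb upstream of the growth factor gene Bmp2, with 7.38 and 8.35. For NfiA and NfiX it was in an intron of Lmx1a, a homeodomain factor of the rhombic lip, with 8.20 and 12.1. For NfiB and NfiX it was 111 kb upstream of Htr2a, a serotonin receptor, with 7.77 and 10.1, and a region in an intron of Pclo, a presynaptic scaffold, had 7.52 and 10.2. Among the 15 strongest regions of a pair, the nearest CD1 peak was at least 11.7 kb away. Over all 2277 Mixed-only regions it lay a median of 18.3 kb away, within 10 kb for 794 (34.9%) and within 1 kb for 153 (6.72%). The median was 16.3 kb for the 6618 regions with exactly 1 Mixed peak and no CD1 peak.

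Few Mixed-only regions lay at gene starts. Within 1 kb of a protein-coding start site lay 107 of them (4.70%, 3.90 to 5.65%), against 2.63% of CD1-only regions, 4.22% of the 14318 regions with 2 or 3 Mixed and 2 or 3 CD1 peaks, 7.36% of the 7091 with exactly 1 CD1 peak, and 8.47% of all 46070. Introns held 45.5% and intergenic DNA 41.9%, and the median distance to a start site was 50.8 kb, against 58.2 kb for the regions with 2 or 3 CD1 peaks and 46.3 kb over all regions. Promoter regions were commoner among regions of NfiA and NfiB, 53 of 744 (7.12%), than among those of NfiA and NfiX, 5 of 260 (1.92%).

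Among the promoter regions, 3 of the 10 strongest had readable sequence, given here because each lies within 1 kb of a start site. The region at Hikeshi, which carries heat shock proteins into the nucleus, had folds of 5.54, 7.90 and 7.52 in the NfiA, NfiB and NfiX Mixed lists and lay 24.0 kb from the nearest CD1 peak. At Cep170, a centrosomal protein, folds were 5.70 in NfiB Mixed and 6.31 in NfiX Mixed. At Nav1, a neuron navigator of the cytoskeleton, they were 4.34, 8.17 and 6.32, and a CD1 peak lay 1.35 kb away. The stretches are chr7:89923568-89923715 (coding exon), chr1:176755735-176755885 (coding exon) and chr1:135606745-135606895 (intron), plus strand, with the single element of Hikeshi in capitals. The other 2 stretches held neither the palindrome nor the single element.
Hikeshi: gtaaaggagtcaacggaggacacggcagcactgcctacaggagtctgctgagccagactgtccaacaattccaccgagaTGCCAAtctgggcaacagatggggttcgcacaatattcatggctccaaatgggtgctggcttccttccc
Cep170: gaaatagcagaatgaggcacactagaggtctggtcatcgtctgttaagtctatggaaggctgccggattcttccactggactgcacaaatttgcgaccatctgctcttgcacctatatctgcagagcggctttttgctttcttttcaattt
Nav1: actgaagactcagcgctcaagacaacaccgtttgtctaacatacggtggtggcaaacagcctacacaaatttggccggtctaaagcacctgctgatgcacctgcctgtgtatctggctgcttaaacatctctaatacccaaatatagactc

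Features of sequence and position that did not enter the rule were compared within each Mixed list, between the summits of Mixed-only regions and the other summits, with 1 difference per library. The share with a Mixed-only neighbour was computed the same way, but it rests on the peak calls that made the rule. An exact two-sided sign-flip permutation over 3 libraries cannot give a p below 0.25, so none of these differences can pass a threshold of 0.05. The 3 lists also share most of these regions, so they are not independent.

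The single NFI element was commoner at Mixed-only summits in all 3 lists. It was found in 30.2% of 126 readable Mixed-only windows against 25.1% of the other windows for NfiA, in 27.1% of 144 against 19.1% for NfiB, and in 34.8% of 89 against 27.6% for NfiX. The mean difference was 6.75 ± 1.55 percentage points (SD, n = 3, exact sign-flip p = 0.25), and it was 8.53 points after the other peaks were weighted to the folds of Mixed-only peaks and 4.28 points against only the peaks of regions with at least 2 Mixed libraries and at least 1 CD1 library. With only peaks of −log10 q of 5 or more it was 1.03 points, and without the NfiB CD1 list it reversed to -1.63 points.

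The full palindrome was rare and did not differ in 1 direction. It was in 2 of 126 NfiA windows (1.59%), 0 of 144 NfiB windows, which allows up to 2.08%, and 2 of 89 NfiX windows (2.25%) at Mixed-only summits, against 1.47%, 0.757% and 2.36% of the other windows (mean difference -0.25 ± 0.45 points, SD, n = 3, exact sign-flip p = 0.5). The NfiA and NfiX counts are the same 2 regions, those of Nsdhl and Tspear shown above. With 4-base arms, the mean difference was -0.06 points (exact sign-flip p = 0.75).

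The E-box CAGCTG, which basic helix-loop-helix factors bind, was scarcer at Mixed-only summits. E-boxes were added to the comparison after the other features, and were not rerun with a library left out or a higher threshold. By region, CAGCTG was in 8.39% of 155 Mixed-only windows and 29.6% of 27 CD1-only windows. Among regions with 2 or 3 Mixed peaks it was in 13.8% of 637 windows with exactly 1 CD1 peak and 20.8% of 865 with 2 or 3. The Mixed-only counts in the NfiA, NfiB and NfiX lists were 12, 14 and 6 windows. The CAGCTG shares were 9.52%, 9.72% and 6.74% in the NfiA, NfiB and NfiX lists, against 15.7%, 14.6% and 17.9% of the other windows, a mean difference of -7.41 ± 3.33 points (SD, n = 3, exact sign-flip p = 0.25). A different E-box, CAGATG, searched on both strands, was not set apart (1.32 ± 3.94 points, SD, n = 3, exact sign-flip p = 0.75). In windows of that length in all RefSeq promoters, CAGCTG was found in 5.55% and CAGATG in 6.17%. The readable windows of Mixed-only summits were poorer in G and C, with medians of 52.5%, 53.5% and 51.5% for NfiA, NfiB and NfiX against 54.5%, 56.4% and 54.5% in the other windows, and the part of base composition in these differences was not tested.

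Position differed by fewer points. Introns held 45.7%, 45.7% and 45.6% of Mixed-only summits of NfiA, NfiB and NfiX against 44.0%, 43.6% and 43.8% of the others, 1.91 ± 0.18 points more (SD, n = 3, exact sign-flip p = 0.25). Chromosome X held 2.34%, 2.23% and 2.201% against 1.48%, 1.62% and 1.56%, 0.70 ± 0.13 points more (SD, n = 3, exact sign-flip p = 0.25). Over regions this came to 50 of the 788 regions on chromosome X (6.35%, 4.85 to 8.27%), and on the other numbered chromosomes the share ran between 4.09% on chromosome 4 and 5.83% on chromosome 3. Promoter summits were 5.46%, 5% and 3.50% against 5.44%, 8.32% and 3.96% (-1.26 ± 1.80 points, SD, n = 3, exact sign-flip p = 0.5), and against peaks of regions with at least 2 Mixed libraries and at least 1 CD1 library the difference was -0.26 points. Without the NfiB CD1 list the promoter difference reversed to 0.85 points, and those for introns and chromosome X shrank to 0.49 and 0.11 points.

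Mixed-only regions tended to lie beside each other. The nearest other region was Mixed-only for 202 of 2276 of them (8.88%, 7.78 to 10.1%), against 4.45% of the other regions. In the lists the shares were 8.46%, 9.31% and 9.26% at Mixed-only summits of NfiA, NfiB and NfiX against 4.28%, 4.45% and 4.56% at the others (4.58 ± 0.36 points, SD, n = 3). The difference was 4.62 points after weighting by fold. Whether a neighbour is Mixed-only comes from the same peak calls that chose the set, so this difference is a description and carries no test. Without the NfiB Mixed list the difference was 1.59 points. The median gap in such neighbours was 10.5 kb, and 40 of the 202 lay within 1 kb of each other.

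**Figure D4:**
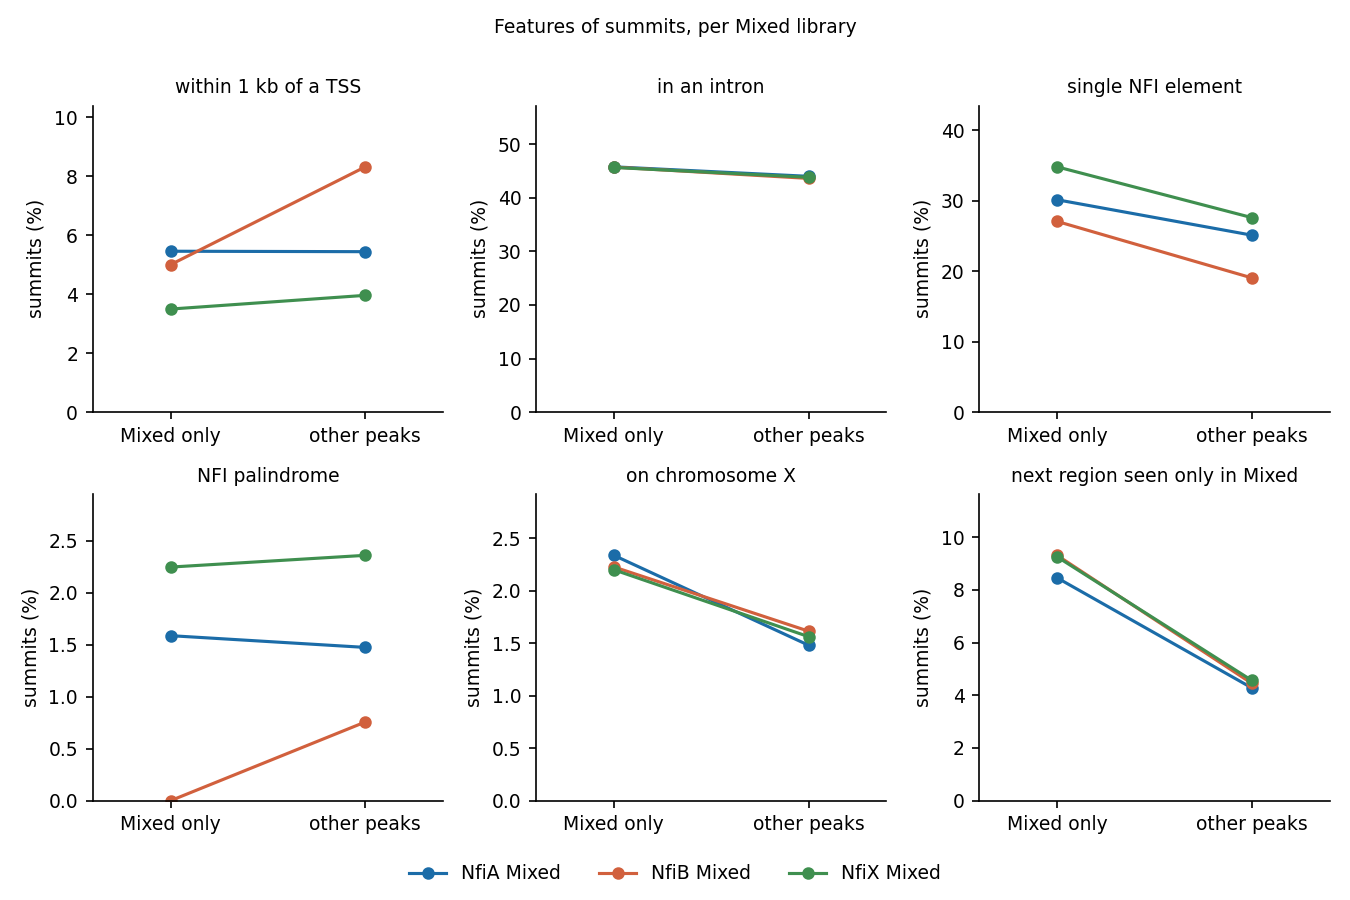
Share of summits (y axes, percent, each from 0) with 6 features, at Mixed-only regions (left) and at the other peaks of the same list (right), with 1 line per Mixed library. The single NFI element, introns, chromosome X and a Mixed-only neighbour are higher on the left in all 3 libraries, and the promoter and palindrome panels differ in direction between libraries.

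The densest 1 Mb stretches showed such runs of neighbours. At chr5:5000001-6000000, 8 of 26 regions were Mixed-only. They lay in introns of Cdk14, a kinase of the cyclin-dependent family, in Cldn12, a claudin of cell junctions, and upstream of Steap1. The strongest, upstream of a Cdk14 start site, had folds of 8.98, 11.8 and 7.31 in the NfiA, NfiB and NfiX Mixed lists. The stretch chr11:88000001-89000000 held 8 of 49 regions, 4 of them in introns of Msi2, an RNA-binding protein of progenitors. The stretch chr9:28000001-29000000 held 6 of 33, all in introns of the adhesion gene Opcml. In all, 24 stretches held 5 or more Mixed-only regions and 1349 of the 2480 stretches with any region held at least 1.

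By gene, 1304 of 21853 protein-coding genes (5.97%) were the nearest start site of a Mixed-only region within 100 kb, and 790 Mixed-only regions had none within that distance. Of the 6794 genes nearest to any region of 2 or 3 Mixed libraries, the 1304 were 19.2%. The 1304 genes had a median of 2 such regions and the other 5488 a median of 1. Nearest means neighbour here, since no file links a region to a gene it controls.

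Anks1b, a postsynaptic scaffold, had the most, 5 Mixed-only regions of 31 regions of any kind. All 5 were in its introns, and the one 5.35 kb from a start site had folds of 6.44, 5.92 and 11.1 in NfiA, NfiB and NfiX Mixed. Bmp2 had 3 of 5 and Cldn12 3 of 4, so most regions next to them were Mixed-only. Dsg2, a desmosomal cadherin, had 3 of 4, and the nearest CD1 peak was 286 to 332 kb away from them. In all, 23 genes had 3, and these also included Adamtsl1, Ltbp1, Dock10, Otud7a and 4930564D02Rik.

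Genes of 14 lists on cerebellar cell types and neuronal processes were then counted. Of 239 list genes, 48 (20.1%) were nearest to a Mixed-only region, beside 5.97% of all protein-coding genes. Of the 184 list genes nearest to any region of 2 or 3 Mixed libraries, the 48 were 26.1%, beside 19.2% of all such genes, and the list genes had a median of 3 such regions against 1. The part of the number of regions beside a gene in these shares was not tested, and the counts carry no test. With only the nearest 20 kb counted, 22 of the 239 list genes remained, beside 629 of all 21853 protein-coding genes (2.88%). Without the NfiB CD1 list there were 134 list genes, and no share over all genes is given for that setting.

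**Figure D5:**
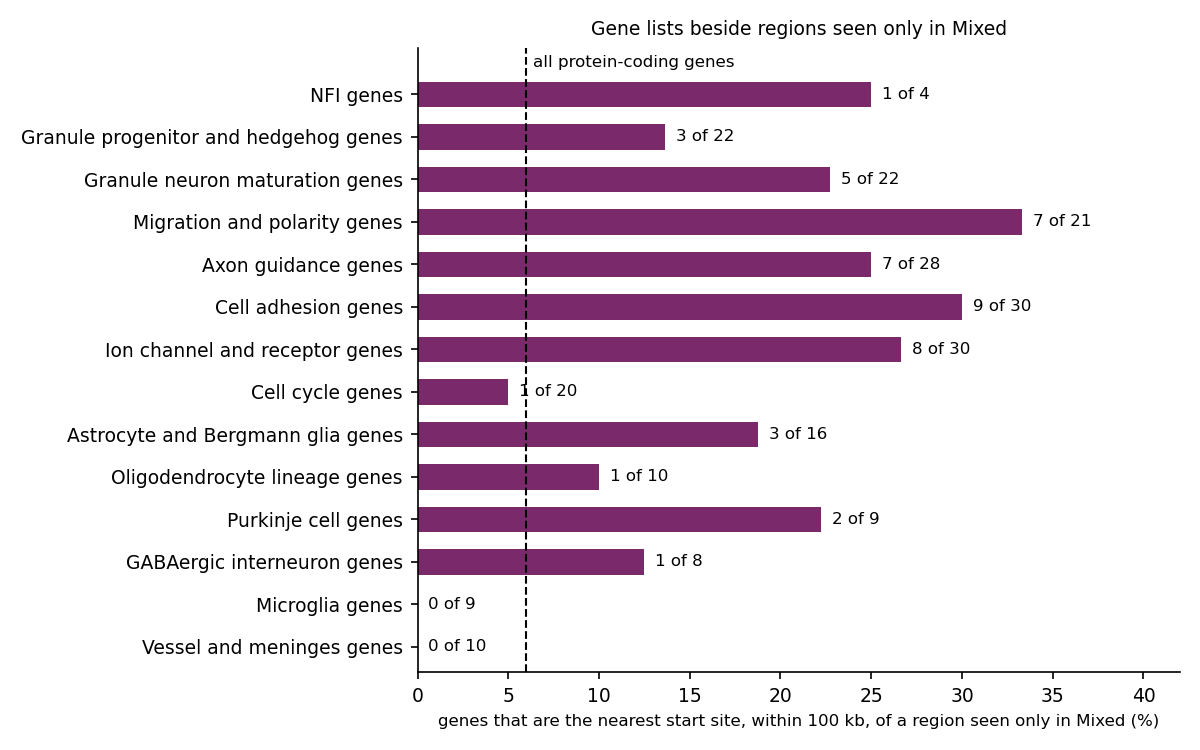
Share of the genes of each of 14 lists (bars, percent) that are the nearest start site, within 100 kb, of a Mixed-only region; the labels give the counts and the dashed line is the share over all protein-coding genes, 5.97%. Migration and polarity genes stand highest with 7 of 21, and microglia and vessel genes are at 0. Among all genes nearest to any region of 2 or 3 Mixed libraries the share is 19.2%, which is not drawn.

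Of the 4 NFI genes only Nfia had a Mixed-only region, in its own intron 78.2 kb from a start site, with folds of 5.93, 7.68 and 6.396 in the NfiA, NfiB and NfiX Mixed lists and a CD1 peak 4.02 kb away. Of 22 granule progenitor and hedgehog genes, 3 had a Mixed-only region: Ptch1, the hedgehog receptor (6.08 in NfiA Mixed and 6.12 in NfiX Mixed, 81.1 kb upstream), Cdon, a hedgehog coreceptor (6.47 in NfiA Mixed and 4.62 in NfiB Mixed), and Gli2, a hedgehog transcription factor (3.70, 4.36 and 4.20 in the NfiA, NfiB and NfiX Mixed lists). Of 20 cell cycle genes only Myc was counted (5%, beside 5.97% of all protein-coding genes), with folds of 3.97, 5.19 and 4.74. Only 7 of these 20 were nearest to any region of 2 or 3 Mixed libraries, so Myc was 14.3% of them. The 3 progenitor and hedgehog genes were 17.6% of the 17 nearest to any such region, beside 19.2% of all such genes.

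Of 22 granule neuron maturation genes, 5 were counted, 23.8% of the 21 nearest to any region of 2 or 3 Mixed libraries. Fgf14, which modulates sodium channels, had the strongest region, 90.3 kb upstream, with folds of 6.56, 10.3 and 8.67 in the NfiA, NfiB and NfiX Mixed lists and no CD1 peak within 132 kb. Gabrd, a GABA receptor subunit of mature granule neurons, had one in an intron 1.18 kb from its start, with 5.50, 5.66 and 7.99. The others were Rbfox3, Tiam1 and Grin2c.

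Migration and polarity genes numbered 7 of 21. That was 41.2% of the 17 nearest to any region of 2 or 3 Mixed libraries, beside 19.2% of all such genes. The 7 included Reln, the secreted guide of migrating neurons (7.83 in NfiB Mixed and 6.51 in NfiX Mixed, but with a CD1 peak 0.15 kb away), and Vldlr, its receptor. Sema6a, a semaphorin needed for granule cell migration in mice, and its receptor Plxna2 were also counted, with Astn2, Bdnf and Srgap2. The Plxna2 region likewise had a CD1 peak close by, 0.185 kb away. Axon guidance genes numbered 7 of 28, 28% of the 25 nearest to any such region, beside 19.2% of all such genes. Among them were the ephrin receptors Epha3 (8.77 in NfiB Mixed and 7.81 in NfiX Mixed), Epha4 and Ephb2, the ligand Efnb2, the netrin receptors Unc5a and Unc5d (7.11, 8.64 and 8.12 for Unc5d), and Plxna1.

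Cell adhesion genes numbered 9 of 30, 32.1% of the 28 nearest to any region of 2 or 3 Mixed libraries. Ion channel and receptor genes numbered 8 of 30, 27.6% of the 29 nearest to any such region. The adhesion genes included Adgrl2, Adgrl3, Nlgn1, Nrcam, Nrxn3, Pcdh10, Pcdh15 and Tenm4, and the Nrcam intron region had folds of 5.65, 5.43 and 6.12. Among the channels, Scn2a, a sodium channel of axons, had 7.42, 9.18 and 4.85 in an intron, and the others were Cacna1c, Cacna2d3, Gabbr2, Gria1, Grin2a, Kcnd2 and Kcnj6.

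Genes that mark other cells of the cerebellum were counted the same way. Of the astrocyte and Bergmann glia genes 3 of 16 were nearest to a Mixed-only region (Slc1a2, Slc4a4 and Sox9), of the Purkinje cell genes 2 of 9 (Itpr1 and Pcp4), of the GABAergic interneuron genes 1 of 8 (Slc6a5) and of the oligodendrocyte genes 1 of 10 (Mog). The microglia list had 0 of 9 and the vessel and meninges list 0 of 10, but 0 of those microglia genes and 4 of those vessel genes were nearest to any region of 2 or 3 Mixed libraries, so the microglia count could only be 0. Among genes nearest to any such region, the glia genes were 21.4% of 14 and the Purkinje cell genes 28.6% of 7. The interneuron gene was 12.5% of 8 and the oligodendrocyte gene 33.3% of 3. Mog was among the weakest, with folds of 3.48, 2.76 and 4.34. Whether other cells contributed to these peaks was not tested.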

How the data were processed

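The authors deposited 1 narrowPeak list per ChIP library, with no list over pooled samples. Per the submitters' processing notes, Bowtie2 2.2.6, SAMtools 1.4.1, MACS2 2.1.0 and mm10 were used; the control and threshold were not given in the sources used here. Each peak has the authors' fold over local background (a ratio), and the deposited −log10 p-value and −log10 q-value; the deposited score column was not used. Folds were used only within a list. Whole fragments and local background were recovered for 100% of peaks of each list from fold and p under a Poisson model (tolerance 0.002 on the −log10 p scale). Read totals were not used.

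The members and lists were chosen with earlier results of these data known. Regions were merged at 1 bp and annotated with GENCODE M21. Shares were compared per library by exact sign-flip permutation, also after weighting the other peaks to the members' folds in 20 bins. Intervals are 95% Wilson intervals and, like the limit for a count of 0 (3 counts), cover counting error only. Python 3.11.15, pandas 2.3.3 and SciPy 1.17.1 were used, and functions were tested on simulated data.

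Named regions were the 20 with all 3 Mixed libraries and the highest mean percentile, 5 per pair, 10 at promoters, up to 4 genes per list, the 10 genes with most Mixed-only regions and the 5 densest stretches. The 14 lists are those reported above. A gene is named for its nearest protein-coding start site. Alternatives covered the peak threshold, list length, overlap, comparison peaks, windows and each library left out. A few genes that the naming rule picks are not reported here.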

Additional observations from a re-analysis of the deposited data

How the results depend on the processing

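With a minimum −log10 q of 5 in every list the set had 1835 regions, with summits matched within 100 bp 2559, and with gaps of up to 1 kb merged 2131. It had 1292 with that threshold in the Mixed lists only, 975 with the 7497 strongest peaks of every list, of which 114 overlapped the original 2277, and 659 with all 3 Mixed libraries required. With each library left out in turn it ran from 920 (without NfiB Mixed) to 9137 (without NfiB CD1). Of 60 alternatives for the 6 shares, 54 kept their direction and 6 reversed; in no case could p fall below 0.25 with 3 libraries or 0.5 with 2. The palindrome difference reversed to 0.47 points after weighting and 0.23 within 100 bp, and over left-out libraries ran from -1.90 (without NfiB CD1) to 1.85 (without NfiB Mixed). The promoter difference ran from -2.31 (without NfiA Mixed) to 0.85 (without NfiB CD1), and that of the single NFI element from -1.63 (without NfiB CD1) to 8.39 (without NfiA CD1). List genes numbered 22 within 20 kb, beside 629 of all protein-coding genes (2.88%). With a library left out they ran from 20 (without NfiB Mixed) to 134 (without NfiB CD1), with no share over all genes beside them. The 4-base palindrome and the list genes with a library left out were added after seeing the data. The cause of these changes was not tested. The lists give no value where no peak was called, so low signal in CD1 could not be measured.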
